A study of Mus musculus with 8 samples.

Results

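The genes described here control the pH of a cell or sense protons outside it, and they were followed in fibroblastic reticular cells (FRC), the fibroblast-like stromal cells that build the scaffold of lymph nodes. The set was given as 8 gene symbols: the bicarbonate transporters Slc4a2, Slc4a4 and Slc4a7, the carbonic anhydrases Car9, Car12 and Car13, the proton-sensing receptor Gpr4 and the proton-gated channel Asic1. All 8 were found among the 55367 genes of the count table, and 5 of them had enough reads to be tested. The cells were 1 FRC line, derived from the lymph nodes of C57BL/6 mice that carry p53 ER/ER, so that every condition shares this genotype and the libraries are cultures of a single line rather than separate animals. For 4 days FRCs received RPMI with 15 mmol/L lactic acid (LA), RPMI with the same volume of water (vehicle), RPMI conditioned by B16.F10 mouse melanoma cells (TCM), or RPMI conditioned by FRCs themselves (CCM), all with low serum. Poly(A) RNA was sequenced from 2 libraries per condition, 8 in all. The series asks how tumor-derived factors change FRCs and how much of that LA alone gives, so TCM was compared with CCM and LA with vehicle.

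Cells that take up or make lactic acid must dispose of protons. Sodium-proton exchangers and proton-linked monocarboxylate transporters move protons or lactic acid across the membrane, and bicarbonate transporters bring in or let out the base that buffers them. Carbonic anhydrases interconvert carbon dioxide and bicarbonate, in the cytosol or, for membrane-bound forms, at the cell surface. Protons outside the cell are sensed by receptors such as Gpr4, which signals through cyclic AMP, and by channels such as Asic1, which lets sodium in when the medium turns acidic.

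Promoter sequence was read for the gene that rose with TCM, Slc4a7, and for Car9, the textbook target of hypoxia-inducible factor (HIF), to show what lies in front of them. RefSeq gave 9 promoters for 7 of the 8 genes on GRCm38.p6, each reaching from 250 bases before to 50 bases after the start, and Car13 had none. The first sequence gives the 250 bases before the RefSeq start of Slc4a7, chr14:14718534-14718783 on the plus strand, which is intronic in the longer GENCODE M21 gene. The second gives 30 bases before the RefSeq start of Car9, chr4:43506996-43507025 on the plus strand, which are exonic in GENCODE M21. Capitals mark matches, on either strand, to the core letters of the HIF response element. These are ACGTG and, in its other form, GCGTG.
Slc4a7: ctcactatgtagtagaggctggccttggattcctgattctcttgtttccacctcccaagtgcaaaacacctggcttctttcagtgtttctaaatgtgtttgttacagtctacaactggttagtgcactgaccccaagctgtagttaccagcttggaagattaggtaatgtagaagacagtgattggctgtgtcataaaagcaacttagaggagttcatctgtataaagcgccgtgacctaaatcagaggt
Car9: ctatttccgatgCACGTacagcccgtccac

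The Slc4a7 window held neither core, and the bases before the start of its longer GENCODE M21 gene were not read. The windows of Asic1, Slc4a2 and Slc4a4 also lie inside their GENCODE M21 genes. Car9 was the 1 promoter of the 9 with ACGTG, on the opposite strand at position -18 from the start, against 19.6% of all 32851 RefSeq promoters of this length. The other form, GCGTG, was found in 3 of the 9, in 1 each for Asic1, Slc4a2 and Slc4a4, against 32.4% of all promoters. The E-box CACGTG, which overlaps the first HIF core, was found in 0 of the 9, against 7.15% of all promoters. The cyclic AMP response element TGACGTCA was found in 0 of the 9, against 1.79% of all. These matches describe letters and not binding.

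Counted reads per library ranged from 8.23 M to 14.1 M, and the floor was set at 3 counts per library. That floor corresponds to 0.211 to 0.354 CPM, the unit in which a count is divided by the size of its library after scaling by TMM, the edgeR method that sets libraries on a common scale. No molecular identifiers were used, so floors and counting intervals cover counting error only. The 6 tested of 11 FRC markers included Pdpn and Vcam1, and the summed level of the 11 was 831 to 980 CPM in the 8 libraries. Pdgfrb alone gave 267 to 508 CPM of that sum. Other markers were sparse, with 1 to 16 counts per library for Thy1, 5 to 26 for Il7 and 1 to 8 for Icam1. The chemokines that define FRCs in tissue were nearly absent, with Ccl21a at 0 counts and Ccl19 at 0 or 1. With TCM against CCM, Pdpn rose (log2 FC 0.44, adjusted P = 0.0108, edgeR) and Pdgfrb fell (-0.47, adjusted P = 0.00926, edgeR). The 8 leukocyte and endothelial markers summed to 7 to 13 counts per library, and Ptprc was at 0 in each. The 6 melanoma markers, a check on RNA carried over with TCM, summed to 1.64 to 1.89 CPM with TCM and 0.955 to 1.77 CPM in the other conditions. Pmel gave most of these counts, with 10 and 10 under TCM and 10 to 21 elsewhere. With TCM, Tyrp1 had 6 and 3 counts, Dct 1 and 1 and Sox10 0 and 1, and all 3 had 0 elsewhere. Mlana had 1 count in the second LA and 1 in the first TCM library, and Tyr had 0 in each library. The part of such carried-over RNA in the results was not tested. P values measure the spread between these cultures of 1 line, and in bulk RNA fewer cells of a type and less RNA per cell cannot be told apart. With 2 libraries against 2, an exact permutation test of a single gene could not go below a two-sided P value of 0.333, so tests rest on the edgeR quasi-likelihood fit over 12137 genes. A gene was called at a Benjamini-Hochberg adjusted P value under 0.05 and a log2 fold change (log2 FC) beyond 0.39.

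Per kilobase of exon, the level of Car13, a cytosolic carbonic anhydrase, was highest of the 8, with a mean of 34.4 CPM per kb over the 8 libraries. Slc4a2, which exchanges bicarbonate for chloride, followed with 12.3 CPM per kb, and Slc4a7, which carries sodium and bicarbonate into the cell together, with 7.19 CPM per kb. The other genes were far lower: Car9 at 0.242, Car12 at 0.141, Slc4a4 and Asic1 at 0.120 each and Gpr4 at 0.00306 CPM per kb. The order of the leading genes was the same in each of the 4 conditions, and Slc4a7 came nearest to Slc4a2 with TCM, at 9.66 ± 2.08 against 11.6 ± 0.161 CPM per kb (SD, n = 2).

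**Figure D1:**
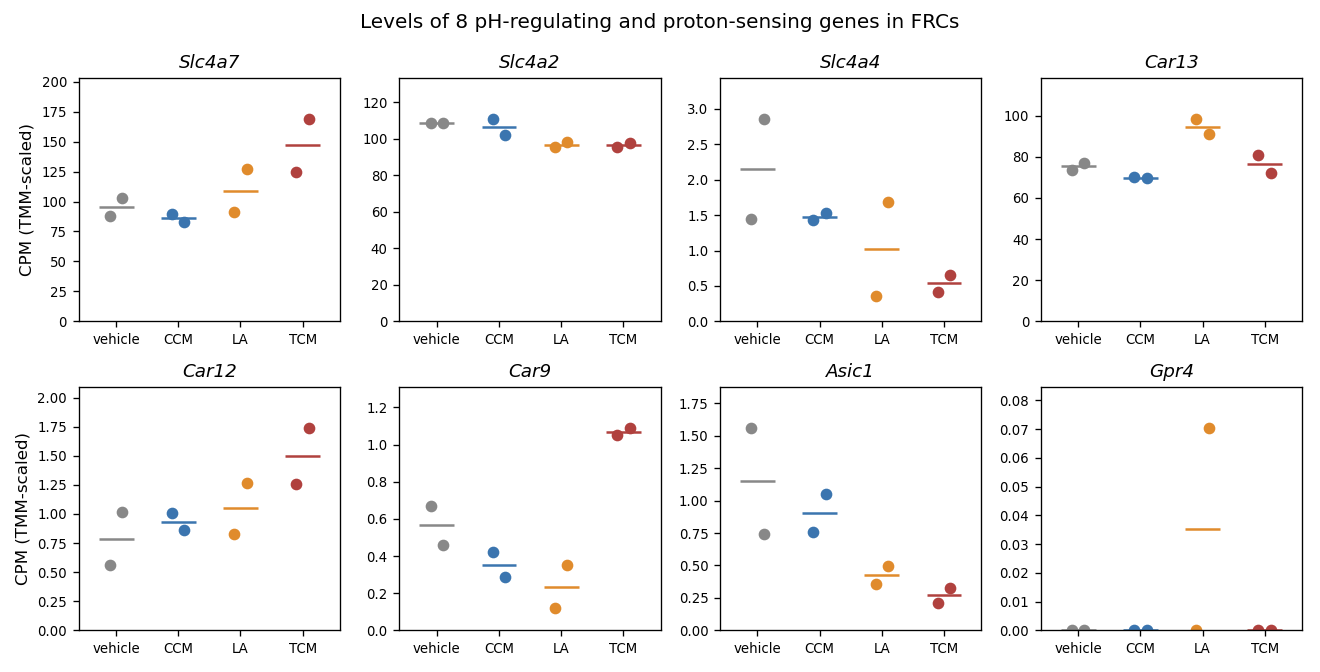
Level of each of the 8 genes in CPM, scaled by TMM, in the 2 libraries of vehicle, CCM, LA and TCM, each panel with its own axis from 0. Points are libraries and bars are means of 2. Slc4a7 stands at 125 and 169 CPM with TCM against 89.3 and 83.1 CPM with CCM, while Gpr4 has a read in 1 library alone.

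TCM raised 1 of the 8 genes, the sodium bicarbonate cotransporter Slc4a7, and the call took in 1 of the 5 tested. In the same comparison 19.1% of all tested genes were called (2314 of 12137), so 1 of 5 is close to the share among all genes. The median log2 FC of the 5 was 0.13, against 0.00 for all tested genes. With LA against vehicle 0 of the 5 were called by edgeR, and DESeq2 called 0 too. In that comparison 2.55% of all tested genes were called, 1 of the 5 had an unadjusted P value under 0.05, and the median log2 FC of the 5 was 0.20.

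Slc4a7 (ENSMUSG00000021733, GRCm38 chr14:14702279-14799940, plus strand, no overlapping gene) is an acid-extruding transporter that loads bicarbonate into the cell. Its level was 87.6 and 103 CPM under vehicle, 89.3 and 83.1 under CCM, 90.9 and 127 under LA and 125 and 169 under TCM. Both TCM libraries stood above both CCM and both vehicle libraries, while the second LA library reached the first TCM library. Slc4a7 was 1.70-fold higher with TCM than with CCM, a log2 FC of 0.77 (95% CI, 0.39 to 1.15; SE 0.173, adjusted P = 0.00941, edgeR). With LA against vehicle its log2 FC was 0.20 (95% CI, -0.18 to 0.58; adjusted P = 0.692, edgeR), and -0.07 without the second LA library. The TCM effect exceeded the LA effect by a log2 FC of 0.57 (95% CI, 0.03 to 1.10), which did not pass (adjusted P = 0.184, edgeR), so that the responses are not shown to differ. The difference of Slc4a7 passed when no filter was applied (0.57, adjusted P = 0.0106, edgeR).

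The TCM call of Slc4a7 depended on single libraries. Without the second TCM library its log2 FC was 0.53 (adjusted P = 0.0834, edgeR), and without the second CCM library it was 0.72 (adjusted P = 0.0716, edgeR). Slc4a7 is a long transcript, with 15205 bases of exon, which places it among the 10% of tested genes that are longest. The second TCM library ran higher than the first by a median log2 of 0.30 in that length class and lower in the shortest 10%, at -0.39. Slc4a7 itself was higher in the second library by 0.44 with TCM, 0.48 with LA and 0.23 with vehicle, and lower with CCM, at -0.10. Between conditions the longest class had a median log2 FC of 0.01 for TCM against CCM, and 8.69% of its 1197 genes were called higher, against 8.85% of all genes with a length. The part of transcript length in the Slc4a7 difference was not tested.

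**Figure D2:**
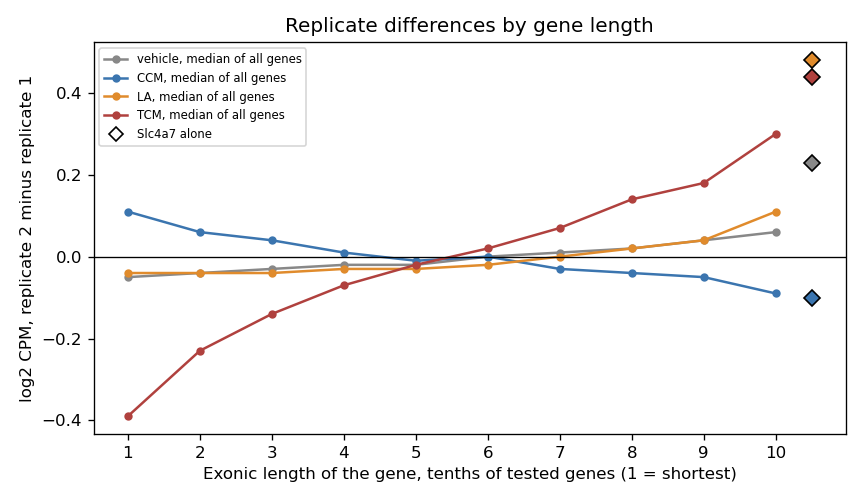
Median difference in log2 CPM between replicate 2 and replicate 1 of each condition (vertical axis) for tested genes in 10 classes of exonic length from the shortest to the longest (horizontal axis), with the differences of Slc4a7 alone as diamonds at the right. The TCM line runs from -0.39 to 0.30, and the diamonds of LA (0.48) and TCM (0.44) stand above every line.

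The genes whose levels followed Slc4a7 most closely over the 8 libraries were Lpp, a protein of cell adhesions, with a Pearson r of 0.9853, Lnpep, the insulin-regulated aminopeptidase, with 0.9792, and Sestd1 with 0.9760. These correlations describe libraries that share conditions and depth. The 3 genes were picked for following Slc4a7, a gene called with TCM, over these same libraries. Their own rise with TCM follows largely from that choice and is no independent result. Lpp, the closest of them, had mean levels of 199 CPM with vehicle, 192 with CCM, 247 with LA and 335 with TCM. All 3 rose with TCM against CCM, by a log2 FC of 0.80 for Lpp, 0.61 for Lnpep and 0.44 for Sestd1, with adjusted P values of 0.00898, 0.0141 and 0.0467 (edgeR), and none was called with LA. Lpp and Lnpep lie in the longest class by exonic length, at 22046 and 14144 bases, and Sestd1 in the next, at 9857. Without the second TCM library the log2 FC was 0.50 for Lpp, 0.35 for Lnpep and 0.25 for Sestd1, and none of the 3 was called. Leaving out either CCM library also ended all 3 calls, and that of Sestd1 was lost when any 1 vehicle or LA library was left out as well.

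Slc4a4 (GRCm38 chr5:88886818-89239653), an electrogenic sodium bicarbonate cotransporter, is close to Slc4a7 in function but was sparse. It had 13 and 31 counts under vehicle, 17 and 16 under CCM, 3 and 24 under LA and 4 and 6 under TCM. In CPM these were 1.45 and 2.86, 1.43 and 1.53, 0.354 and 1.69, and 0.421 and 0.654. Both TCM libraries lay below both vehicle and both CCM libraries, and the LA libraries fell on either side of TCM. Against CCM its log2 FC with TCM was -1.44 (95% CI, -2.92 to 0.03), which did not pass (adjusted P = 0.153, edgeR). LA against vehicle gave -0.92 (95% CI, -2.05 to 0.21; adjusted P = 0.478, edgeR), a value that moved between -0.32 without the second vehicle library and -2.60 without the second LA library.

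Slc4a2 (GRCm38 chr5:24423837-24440950) carries bicarbonate out of the cell in exchange for chloride, the opposite task to Slc4a7. Its levels were 109 and 109 CPM under vehicle, 111 and 102 under CCM, 95.6 and 98.2 under LA and 95.8 and 97.7 under TCM. All 4 LA and TCM libraries lay below all 4 control libraries, by little. The log2 FC was -0.13 for TCM against CCM (95% CI, -0.33 to 0.06; adjusted P = 0.320, edgeR) and -0.17 for LA against vehicle (95% CI, -0.37 to 0.03; adjusted P = 0.433, edgeR), so that neither passed and neither interval reaches the fold threshold of 0.39 below 0. Fastk and Gm22333 overlap Slc4a2 on the opposite strand, and how strand was treated in counting is not given in the sources used here.

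Car13 (GRCm38 chr3:14641727-14663002) was the most abundant carbonic anhydrase and the gene of the set with the smallest unadjusted P value for LA. It measured 73.7 and 77.1 CPM under vehicle, 70.1 and 69.6 under CCM, 98.4 and 91.0 under LA and 80.7 and 72.2 under TCM. Both LA libraries stood above all 6 others. The log2 FC with LA was 0.33 against vehicle (95% CI, 0.11 to 0.54), a 1.25-fold difference with an adjusted P value of 0.125 (edgeR) that did not pass. When either TCM library was left out, the adjusted P value was 0.0229 or 0.0225, but the log2 FC of 0.32 stayed under the fold threshold. With TCM against CCM it was 0.13 (95% CI, -0.09 to 0.35; adjusted P = 0.386, edgeR), and it turned to -0.01 without TMM. The TCM effect minus the LA effect was -0.20 (95% CI, -0.50 to 0.11; adjusted P = 0.430, edgeR).

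Car12 and Car9 are membrane-bound carbonic anhydrases whose active site faces the outside, and both were near the limit of detection. Car12 (GRCm38 chr9:66713686-66766845) had 5 and 11 counts under vehicle, 12 and 9 under CCM, 7 and 18 under LA and 12 and 16 under TCM. Its levels were 0.558 and 1.02, 1.01 and 0.859, 0.827 and 1.27, and 1.26 and 1.74 CPM in that order. The TCM libraries lay above those of CCM and vehicle, but the first TCM library did not exceed the second LA library. With TCM against CCM its log2 FC was 0.67 (95% CI, -0.25 to 1.59; adjusted P = 0.288, edgeR), and with LA against vehicle 0.44 (95% CI, -0.56 to 1.43; adjusted P = 0.764, edgeR).

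Car9 (GRCm38 chr4:43506966-43513729), best known as a HIF-induced enzyme of hypoxic tumors, had too few counts to be tested: 6 and 5 under vehicle, 5 and 3 under CCM, 1 and 5 under LA and 10 and 10 under TCM. Both TCM libraries, at 1.05 and 1.09 CPM, were higher than all 6 others, which lay between 0.118 and 0.669 CPM. Summed over libraries and scaled for depth, TCM had 20 counts against 8 with CCM, a ratio of 2.99 with an exact 95% counting interval of 1.26 to 7.85. LA had 6 counts against 11 with vehicle, a ratio of 0.476 (0.145 to 1.41). On the log2 scale this was -1.07, and -2.23 without the second LA library. When no filter was applied, which tested 23234 genes, the log2 FC with TCM against CCM was 1.56 (adjusted P = 0.112, edgeR) and did not pass, and with TCM against LA it was 1.96 (adjusted P = 0.0468, edgeR) and passed. Gm12454 lies antisense to Car9, so reads of the pair may not be told apart.

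The proton sensors of the set were hardly transcribed in these cells. Asic1 (GRCm38 chr15:99670368-99701130), a channel best known from neurons, had 14 and 8 counts under vehicle, 9 and 11 under CCM, 3 and 7 under LA and 2 and 3 under TCM, and was not tested. The levels were 1.56 and 0.739, 0.758 and 1.05, 0.354 and 0.493, and 0.210 and 0.327 CPM. All 4 LA and TCM libraries thus lay below all 4 control libraries. Both TCM libraries and the first LA library were at or under the floor of 3 counts, which leaves the size of the folds uncertain. The ratio of summed, depth-scaled counts was 0.299 for TCM against CCM (5 counts against 20; 95% counting interval, 0.0877 to 0.821), and 0.397 for LA against vehicle (10 against 22; 0.168 to 0.874). On the log2 scale the LA value was -1.33, and -0.74 without the first vehicle library. With no filter these differences did not pass, at a log2 FC of -1.69 (adjusted P = 0.116, edgeR) and -1.32 (adjusted P = 0.396, edgeR), whereas TCM against vehicle did, at -2.03 (adjusted P = 0.0358, edgeR). Gpr4 (GRCm38 chr7:19212538-19224174) gave 1 read in the second LA library and 0 in the other 7, so its expression was not detectable at this depth and no fold is given.

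**Figure D3:**
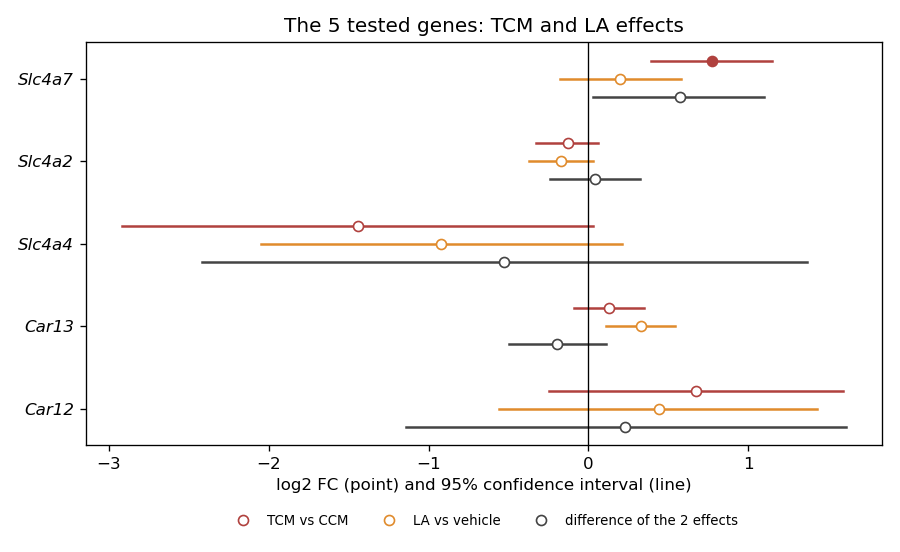
Log2 FC (horizontal axis) of the 5 tested genes for TCM against CCM, LA against vehicle and the difference of these effects. Points are estimates, lines are 95% confidence intervals, and the filled point is the 1 call. Only the TCM interval of Slc4a7, from 0.39 to 1.15, carries a call, and the intervals of Slc4a4 and Car12 are the widest.

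The test of the TCM effect minus the LA effect called 0 of the 5 genes with edgeR and 0 with DESeq2, against 10.4% of all tested genes, and 1 of the 5, Slc4a7, had an unadjusted P value under 0.05. The controls did not separate these genes: CCM against vehicle called 0 of 5 with edgeR and DESeq2, 0 at an unadjusted P value under 0.05, against 1.30% of all tested genes. TCM against vehicle called 2 of 5, against 17.5% of all. Slc4a7 rose there (log2 FC 0.63, SE 0.173, adjusted P = 0.0269, edgeR), and Slc4a4 fell, with a log2 FC of -2.02 (SE 0.631, adjusted P = 0.0461, edgeR). TCM against vehicle shares its TCM libraries with TCM against CCM and is no independent test, and both calls were lost without the second vehicle library (0.74 and -1.42) or the second TCM library (0.39 and -2.36). Without the first vehicle library Slc4a7 was not called either (0.52), and without the first TCM library or either CCM library Slc4a4 was not called (adjusted P = 0.152, 0.0638 and 0.0618, edgeR). DESeq2 did not call Slc4a4 (adjusted P = 0.0575).

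TCM was also set against LA, and LA against CCM. TCM and CCM were conditioned by cells and LA was not, so treatment and conditioning of the medium cannot be told apart here. The same holds for TCM against vehicle. TCM against LA called 0 of 5 with edgeR and DESeq2, 2 at an unadjusted P value under 0.05, against 16.1% of all tested genes. Car13 was lower with TCM than with LA by a log2 FC of -0.31 (adjusted P = 0.0528, edgeR) and Slc4a7 was at 0.42 (adjusted P = 0.116, edgeR), so neither passed. LA against CCM called 0 of 5 with edgeR and DESeq2, 1 at an unadjusted P value under 0.05, against 0.626% of all tested genes. That 1 gene was Car13, with a log2 FC of 0.44 (95% CI, 0.22 to 0.65; adjusted P = 0.0916, edgeR), and it was called when either TCM library was left out (adjusted P = 0.00769 and 0.00739, edgeR), or when the LA and CCM libraries alone were fitted (adjusted P = 0.00801, edgeR).

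The wider pH machinery was followed with 6 lists, which include the 8 genes. With LA against vehicle, edgeR and DESeq2 called 0 genes in each list, and at an unadjusted P value under 0.05 the counts were 2 of 9 sodium-proton exchangers and partners, 0 of 7 bicarbonate transporters, 1 of 5 carbonic anhydrases, 0 of 1 proton sensor, 7 of 19 subunits of the V-ATPase and 1 of 4 monocarboxylate transporters and chaperones. Over all tested genes 14.3% had such a P value and 2.55% were called. The V-ATPase is the pump that acidifies lysosomes, and none of its 19 tested subunits had a positive log2 FC with LA, where the median was -0.26 and the range -1.37 to -0.01. None was positive under the other scalings either. With CCM against vehicle 18 of the 19 were negative too, with a median of -0.14, and the summed level of the 24 subunits in the table was 1496 to 1519 CPM with vehicle, 1341 to 1372 CPM with CCM and 1289 to 1332 CPM with LA. Vehicle thus stood above both, and LA against CCM gave a median of -0.06 with 15 of 19 negative. With TCM the summed level was 1428 to 1581 CPM, and TCM against vehicle gave a median of -0.07 with 8 of 19 positive.

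With TCM against CCM 19.1% of all tested genes were called, and in the lists the shares were 22.2% for the sodium-proton exchangers and partners, 14.3% for the bicarbonate transporters, 40.0% for the carbonic anhydrases and 15.8% for the V-ATPase subunits, from 1 to 3 calls each. Of the 4 tested genes of lactic acid transport 2 were called, and both rose. Slc16a3, the monocarboxylate transporter known for exporting lactate from glycolytic cells, went from 1.47 ± 0.0595 CPM with CCM to 4.41 ± 1.47 CPM with TCM (SD, n = 2; log2 FC 1.57, adjusted P = 0.00901, edgeR). Bsg, the chaperone that brings such transporters to the membrane, went from 664 ± 11.7 to 1022 ± 176 CPM (log2 FC 0.62, adjusted P = 0.00412, edgeR). Slc16a3 was also at 1.98 ± 0.791 CPM with LA and 0.918 ± 0.122 CPM with vehicle, a log2 FC of 1.18 that did not pass (adjusted P = 0.229, edgeR). When either CCM library was left out the Slc16a3 call was lost (adjusted P = 0.0615 and 0.0592, edgeR), as was that of Bsg without the first CCM library (adjusted P = 0.0527, edgeR).

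Of the 9 tested sodium-proton exchangers and partners, 1 rose and 1 fell with TCM. Slc9a3r2, a scaffold protein that binds exchangers, rose from 27.1 ± 1.00 to 40.6 ± 0.582 CPM (log2 FC 0.59, adjusted P = 0.00311, edgeR), and Slc9a9, an exchanger of endosomes, fell from 4.05 ± 0.485 to 1.39 ± 0.420 CPM (log2 FC -1.53, adjusted P = 0.00711, edgeR). Slc4a7 was the 1 bicarbonate transporter called of 7 tested, in a list whose median log2 FC with TCM was -0.30.

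The 5 tested carbonic anhydrases included 1 that rose and 1 that fell with TCM, and neither is among the 3 of the set. Car5b, a mitochondrial form, rose from 4.16 ± 0.0518 to 6.90 ± 0.965 CPM (log2 FC 0.73, adjusted P = 0.0314, edgeR). Car2, a fast cytosolic form, fell, from 16 and 12 counts with CCM to 1 and 3 with TCM (log2 FC -2.48, adjusted P = 0.0105, edgeR), and so few TCM reads leave the size of the fold uncertain. DESeq2 did not call Car5b (adjusted P = 0.115), which was also lost without TMM (0.59, adjusted P = 0.0676, edgeR), with the compared libraries alone (adjusted P = 0.0564, edgeR), and without the first TCM library or either CCM library, and Car2 was lost without the first CCM library (-2.35) or the first TCM library (-1.90), and was at -3.43 without the second TCM library.

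Of the 19 tested V-ATPase subunits 2 rose and 1 fell with TCM, a share near that of all genes. Atp6v1d (log2 FC 0.46, adjusted P = 0.0303, edgeR) and Atp6v1e1 (0.40, adjusted P = 0.0236, edgeR) rose, and Atp6v1g2, a form known mostly from neurons, fell from 4.45 ± 0.492 to 1.23 ± 0.258 CPM (log2 FC -1.85, adjusted P = 0.00157, edgeR). The list had 6 calls without the second TCM library and 1 without the first, or without either CCM library, and without TMM neither Atp6v1d nor Atp6v1e1 was called. Atp6v1d was also lost without the first vehicle library. In the list of proton-sensing receptors and proton-gated channels 1 of 15 genes in the table was tested, Pacc1, a proton-activated chloride channel, at a log2 FC of 0.41 with TCM (adjusted P = 0.107, edgeR).

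**Figure D4:**
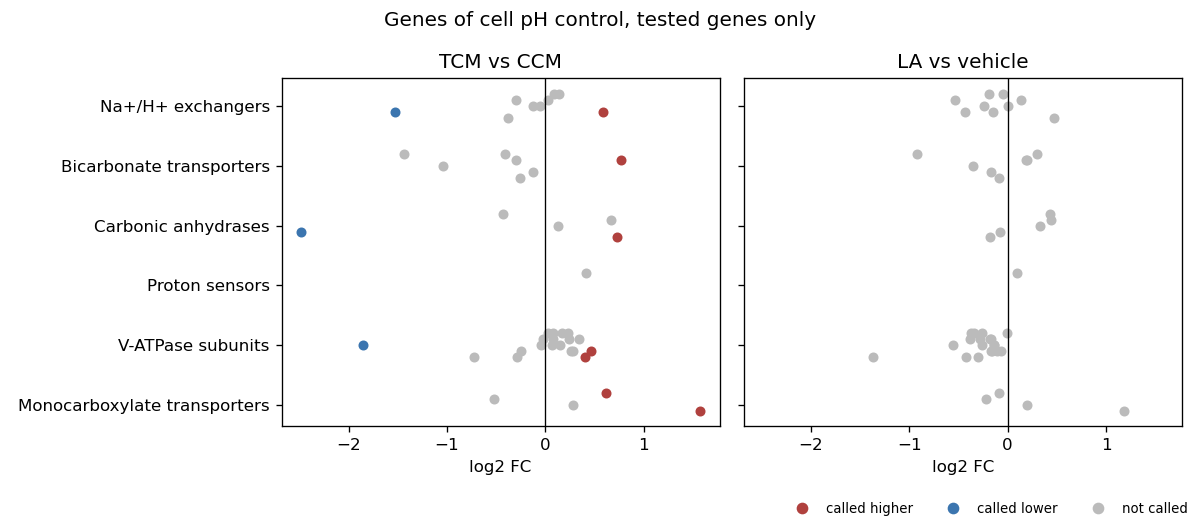
Log2 FC (horizontal axis) of every tested gene of the 6 lists (rows) for TCM against CCM and LA against vehicle, with red points called higher, blue points called lower and grey points not called. The TCM panel holds 7 red and 3 blue points, and the LA panel holds grey points alone, with all 19 V-ATPase subunits left of 0.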

How the data were processed

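The authors aligned directional poly(A) reads to GRCm38 with STAR 2.7.0a, counted them with featureCounts (Subread 2.0.1) and deposited the raw counts of each gene as whole numbers. Their own tests used DESeq2 1.32.0. A second deposited table, named as normalized counts, held 100% of its values equal to the raw counts for 12137 genes; 0 columns were left unused. Libraries were grouped by their labels.

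The filter kept genes that reached 10 counts in 3 or more libraries (12137 of 55367). They were fitted in R 4.3.3 with edgeR 4.0.16 (TMM factors 0.938 to 1.04, estimateDisp, robust glmQLFit and glmQLFTest), with a mean for each of 4 conditions and all 8 libraries. Adjusted P values are over all tested genes in each of 7 contrasts. CPM values are counts over TMM-scaled library totals, and SD is over 2 libraries. For genes under the filter, ratios of summed, depth-scaled counts carry exact conditional binomial intervals. Positions and exonic lengths are from GENCODE M21, which is not the annotation that was counted on. The tests were checked on simulated data in which only well-counted genes were changed and all genes shared a common spread. The changes set there were larger than that of Slc4a7 with TCM against CCM. That check therefore does not cover sparse genes such as Slc4a4 and Car12, or changes of the size seen for Slc4a7. All 8 genes are named; from the lists, at most the 4 genes per list of smallest adjusted P value among those called with TCM against CCM, those called with LA, and the 3 closest neighbours of a called gene by Pearson r of log2 CPM. The genes, lists and tests were chosen with earlier results of these data known. Alternatives were DESeq2 1.42.0 and its size factors, no TMM, other filters, compared libraries alone, replicate number as a block, other fold thresholds and each library left out. Crossed CCM numbers were added after seeing the data.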

Additional observations from a re-analysis of the deposited data

Results flagged for a closer look

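For 4 genes of the wider pH lists the TCM effect (against CCM) and the LA effect (against vehicle) differed by a test of the difference itself. These were 1 of 9 tested sodium-proton exchangers and partners, 2 of 19 V-ATPase subunits and 1 of 4 monocarboxylate transporters and chaperones. The test called 0 of 7 bicarbonate transporters, 0 of 5 carbonic anhydrases and 0 of 1 proton sensor. Over all tested genes it called 10.4% (1268 of 12137). For Slc9a3r2 the TCM effect exceeded the LA effect by 1.01 on the log2 scale (SE 0.155, adjusted P = 0.00174, edgeR). For Bsg the difference was 0.71 (SE 0.170, adjusted P = 0.0212, edgeR), and for Atp6v1e1 it was 0.70 (SE 0.155, adjusted P = 0.0154, edgeR). Atp6ap2, an accessory V-ATPase subunit named after its values were seen, differed by 0.72 (SE 0.181, adjusted P = 0.0281, edgeR). Neither of the Atp6ap2 effects was called alone, and they had opposite signs. The log2 FC was 0.34 with TCM against CCM (adjusted P = 0.0846, edgeR) and -0.38 with LA against vehicle (adjusted P = 0.183, edgeR). Mean levels of Atp6ap2 were 80.9 CPM with vehicle, 70.5 with CCM, 62.1 with LA and 89.2 with TCM. The difference of Slc9a3r2 passed in each fit that left out 1 library. That of Bsg was lost when either vehicle, either CCM or either LA library was left out, with values of 0.68 to 0.74, and without TMM (0.57, adjusted P = 0.0505, edgeR), and that of Atp6v1e1 when either vehicle, either CCM or the second LA library was left out, with values of 0.67 to 0.72. The difference of Atp6ap2 was lost when any 1 vehicle, CCM or LA library was left out, with values of 0.66 to 0.78, and without TMM (0.57, adjusted P = 0.0634, edgeR).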

How the results depend on the processing

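Under up to 19 alternatives, the 35 log2 FC values of the 5 tested genes gave 651 values. Of these, 607 kept direction and call, 14 lost the call, 11 gained it and 19 changed sign in 13 results. Most of the 35 were not called and so had no call to lose. Slc4a7 lost its call in 3 of 19 alternatives with TCM against CCM and in 5 of 19 with TCM against vehicle. Slc4a4 lost its call with TCM against vehicle in 6 of 18. The number of the 8 genes called, of which 5 pass the main filter, stayed at 0 under each alternative for LA against vehicle and CCM against vehicle. For TCM against CCM (1 call) it was 0 at a fold threshold of 1 and 0 to 1 when a library was left out. For TCM against vehicle (2 calls) it was 3 with no filter, where Asic1 was added. For the same comparison it was 1 with DESeq2, with at least 10 counts in every library and at fold thresholds of 0.68 and 1. It also fell in some of the fits that left out 1 library. For TCM against LA (0 calls) it was 1 without TMM, 2 with no filter (Slc4a7 and Car9) and 1 with the replicate block; for LA against CCM (0 calls) it was 1 with no filter, 1 with the compared libraries alone and 0 to 1 when a library was left out; for the TCM effect minus the LA effect (0 calls) it was 1 with no filter. The causes were not tested.

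Replicate numbers were shared, but nothing shows that they pair the libraries: correlations of same-numbered deviations were 0.353 between vehicle and LA, 0.112 between vehicle and TCM, 0.106 between LA and TCM, and -0.0406, -0.0813 and -0.242 for CCM with vehicle, LA and TCM. The replicate block called 2367 genes for TCM and 356 for LA, against 2314 and 310 without it, and among the 5 genes it added the call of Slc4a7 for TCM against LA (0.43, adjusted P = 0.0455, edgeR). Crossing the CCM numbers gave 2675 and 596 calls, with 1 of the 5 genes in each of TCM against LA, LA against CCM and the TCM effect minus the LA effect (Slc4a7 in the last).

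Without TMM the median log2 FC of all genes with TCM against CCM was -0.14, and 24.2% of 2690 calls were higher, against 46.3% of 2314; all-gene counts ranged from 760 to 2863 for TCM and 57 to 656 for LA. Signs turned without TMM for Car13 with TCM against CCM (-0.01) and vehicle (-0.09) and for Slc4a2 in the TCM effect minus the LA effect (-0.11), and with the compared libraries alone for Slc4a2 with TCM against LA (0.00). Leaving out 1 library at a time turned the sign of further log2 FC values, whose ranges follow. With LA against vehicle the range was -0.07 to 0.42 for Slc4a7. In the TCM effect minus the LA effect it was -0.02 to 0.10 for Slc4a2, -1.12 to 1.15 for Slc4a4 and -0.28 to 0.63 for Car12. With CCM against vehicle it was -0.10 to 0.02 for Slc4a2, -0.95 to 0.02 for Slc4a4 and -0.11 to 0.73 for Car12. With TCM against LA it was -0.02 to 0.02 for Slc4a2 and -1.64 to 0.58 for Slc4a4, with TCM against vehicle -0.06 to 0.10 for Car13, and with LA against CCM -2.02 to 0.19 for Slc4a4 and -0.18 to 0.43 for Car12. Depth limits Car9, Asic1 and Gpr4, which did not pass the count filter.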

Other observations

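Car3, a carbonic anhydrase named here after its values were seen, had 6 and 10 counts under vehicle, 6 and 5 under CCM, 4 and 7 under LA and 1 and 0 under TCM. Gpr65, a proton-sensing receptor also named after its values were seen, had 0 counts in all 8 libraries. Among the marker genes, Cxcl13 had 43 counts in the first CCM library and 0 in the other 7, and Tyrp1, a melanoma marker, had 6 and 3 counts with TCM and 0 elsewhere.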
